A study of Mus musculus with 13 samples.

Results

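The histone cluster genes of mouse encode the core histones H2A, H2B, H3 and H4, which form the protein disc of the nucleosome, and the linker histone H1, which binds the DNA between discs. They were taken as all rows of the authors' gene-level table whose symbol begins with Hist, a cluster number and h, which gave 68 of 23236 rows. By symbol, 6 belong to H1, 18 to H2A, 19 to H2B, 12 to H3 and 13 to H4. By locus, 54 lie in the Hist1 cluster on chromosome 13, 10 in Hist2 on chromosome 3, 3 in Hist3 on chromosome 11 and 1, Hist4h4, on chromosome 6 (mm9). The rule also takes in the testis histone genes Hist1h1t, Hist1h2aa and Hist1h2ba and the pseudogene Hist3h2bb-ps, so not every row is a replication-dependent gene.

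Most of these genes are transcribed in S phase, when new DNA needs new nucleosomes. Their mRNAs have no introns and, in place of a poly(A) tail, end in a stem-loop bound by the protein Slbp. Some of them are also made as longer, polyadenylated transcripts, above all in cells that have left the cell cycle. H2A and H2B genes often stand back to back and are transcribed away from each other from the DNA between them.

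The cells were C2C12, a mouse myoblast line that fuses into myotubes when serum is lowered. One library was labelled siLinc-Yy1 and its control siNC, by the usual reading of such names an siRNA against the long noncoding RNA Linc-Yy1 and a control siRNA. Both were myoblasts by their label, kept in growth medium with serum, and both were made from RNA selected for poly(A), a step that keeps RNAs with a tail. The siRNA sequences, doses and times after transfection are not stated in the labels. With 1 library per condition no test was made, and every value describes these libraries. The row lincYy1 itself stood at 0.227 FPKM in siLinc-Yy1 and 0.360 FPKM in siNC, too low to check the label. FPKM, the unit of the table, counts fragments relative to transcript length and to the size of the library. Myoblast markers were present in both libraries, with Myod1 at 67.0 FPKM in siLinc-Yy1 and 62.5 FPKM in siNC and Cdh15 at 99.0 FPKM in siLinc-Yy1 and 98.4 FPKM in siNC. Des, which encodes the muscle intermediate filament desmin, was higher, at 487 FPKM in siLinc-Yy1 and 322 FPKM in siNC. Myf5 stood at 21.9 FPKM in siLinc-Yy1 and 18.8 FPKM in siNC, and Pax7 at 2.38 FPKM in siLinc-Yy1 and 2.77 FPKM in siNC.

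The steps between the lowest FPKM values of single-exon receptor genes gave the size of 1 fragment in each library, which corresponds to 47.6 M fragments in siLinc-Yy1 and 66.1 M in siNC if no further scaling was applied. The same steps showed that 97.5 bases (siLinc-Yy1) and 91.6 bases (siNC) had been taken off the length of each receptor row. For an H4 row of coding length this difference, carried over, raises the ratio of siLinc-Yy1 over siNC by 2.76%. Its size for much shorter rows is not known. On this measure, the 48 histone rows past the filter with a locus under 1 kb held 91 to 5347 fragments in siLinc-Yy1 and 76 to 7282 in siNC. Intervals on ratios of single rows are exact binomial 95% intervals from these fragments. Those on ratios of family sums take their width from the fragments of the family's rows under 1 kb, with a normal approximation on the log scale. All cover counting error only, and they treat fragments read from FPKM as counts. For rows that share reads they can be too narrow. Near-identical copies share reads, which the authors' estimate had to divide, so a single row is less certain than the sum over its family.

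Promoters of the rows on which the families differ are shown first, as the 250 bases before the RefSeq start (build GRCm38.p6), each read 5′ to 3′ toward its gene. Capitals mark TATAAA (letters of a TATA box), CCAAT (bound by NF-Y), ATTTGCAT (the octamer bound by Oct1) and AAACACA (an element of H1 promoters). They were searched on both strands and at any position of the 250 bases, so a marked TATAAA need not be a TATA box. Hist1h1d and Hist1h4d are shown for H1 and H4, Hist1h2bj and Hist1h2bk for H2B genes with an H2A gene at their back, and Hist2h2ac and Hist2h2bb for H2A and H2B of the Hist2 cluster.
Hist1h1d, chr13:23554782-23555031, plus strand: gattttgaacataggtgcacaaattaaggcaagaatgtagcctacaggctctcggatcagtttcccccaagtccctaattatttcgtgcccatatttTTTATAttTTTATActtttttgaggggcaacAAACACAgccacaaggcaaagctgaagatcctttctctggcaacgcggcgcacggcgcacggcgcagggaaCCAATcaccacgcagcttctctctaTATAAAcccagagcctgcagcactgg
Hist1h2bj, chr13:22042948-22043197, plus strand: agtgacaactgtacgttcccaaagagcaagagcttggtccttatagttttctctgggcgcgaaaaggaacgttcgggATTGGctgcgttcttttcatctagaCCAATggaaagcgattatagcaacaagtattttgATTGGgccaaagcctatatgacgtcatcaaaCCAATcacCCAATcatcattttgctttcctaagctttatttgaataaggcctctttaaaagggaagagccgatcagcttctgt
Hist1h2bk, chr13:22035571-22035820, plus strand: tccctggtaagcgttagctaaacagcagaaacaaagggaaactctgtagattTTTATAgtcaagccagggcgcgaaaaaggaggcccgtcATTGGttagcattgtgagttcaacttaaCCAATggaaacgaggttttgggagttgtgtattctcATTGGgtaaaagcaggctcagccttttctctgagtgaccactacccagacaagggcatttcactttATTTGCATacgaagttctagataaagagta
Hist2h2ac, chr3:96220881-96221130, minus strand: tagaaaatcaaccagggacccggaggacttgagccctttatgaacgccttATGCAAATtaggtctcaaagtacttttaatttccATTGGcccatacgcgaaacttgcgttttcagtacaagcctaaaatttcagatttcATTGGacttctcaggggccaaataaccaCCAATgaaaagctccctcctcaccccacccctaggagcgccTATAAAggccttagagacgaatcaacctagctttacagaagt
Hist2h2bb, chr3:96269450-96269699, plus strand: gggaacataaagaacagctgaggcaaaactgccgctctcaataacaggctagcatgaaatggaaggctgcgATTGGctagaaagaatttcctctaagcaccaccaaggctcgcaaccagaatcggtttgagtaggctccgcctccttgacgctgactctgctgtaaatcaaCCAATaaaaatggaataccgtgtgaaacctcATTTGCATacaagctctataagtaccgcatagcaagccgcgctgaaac
Hist1h4d, chr13:23581318-23581567, plus strand: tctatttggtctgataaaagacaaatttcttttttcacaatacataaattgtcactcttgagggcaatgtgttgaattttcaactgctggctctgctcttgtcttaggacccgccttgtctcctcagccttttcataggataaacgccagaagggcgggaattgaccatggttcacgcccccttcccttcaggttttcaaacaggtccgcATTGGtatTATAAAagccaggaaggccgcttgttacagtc
Among the 54 histone rows past the filter that matched a single RefSeq promoter, CCAAT was found in 81.5%, against 33.8% of all 32851 promoters of the same length, and TATAAA in 27 of 54, against 12.4%. The octamer stood in 7 of 14 H2A and 6 of 14 H2B promoters and in no promoter of the other families, against 1.60% of all promoters. AAACACA was found in 4 of 5 H1 promoters, against 6.25% of all. CCAAT was in all 14 H2A and all 14 H2B promoters but in 3 of 11 H4 promoters. Back-to-back genes share much of this window, so the same site can count for both families, as the octamer does for Hist1h2ah and Hist1h2bk. The windows of Hist1h2bq and Hist1h2br have the same sequence, so these counts are not of separate sites. A match describes letters in this window and is not a binding site.

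Histone rows were higher in siLinc-Yy1 as a group. Of the 68 rows, 62 passed a mean of 1 FPKM, and all 62 lay above 0 in log2 change of siLinc-Yy1 over siNC, taken with 1 FPKM added to each value. After rescaling to equal summed FPKM 9 of the 62, all of them H2A rows, lay below 0. The median change was 1.07, against -0.021 over all 11792 rows past the filter. With 1 FPKM added, 36 rows were at least 2-fold higher. At least 2-fold higher were 1.39% of all rows, and at least 2-fold lower 0.178%, none of them a histone row. Histone rows thus made up 36 of the 164 rows that were at least 2-fold higher. The authors' deposited table called 47 of its 65 histone rows with status OK higher and none lower. Of all rows with that status, 1.29% were called higher and 0.327% lower in the authors' deposited table. At a 1.5-fold rule 49 of the 62 rows were higher, against 3.28% of all rows. In bulk RNA, more cells in S phase and more histone RNA per cell cannot be told apart. A difference in how much RNA without a tail passed the poly(A) selection cannot be told apart from these either, and was not measured.

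**Figure D1:**
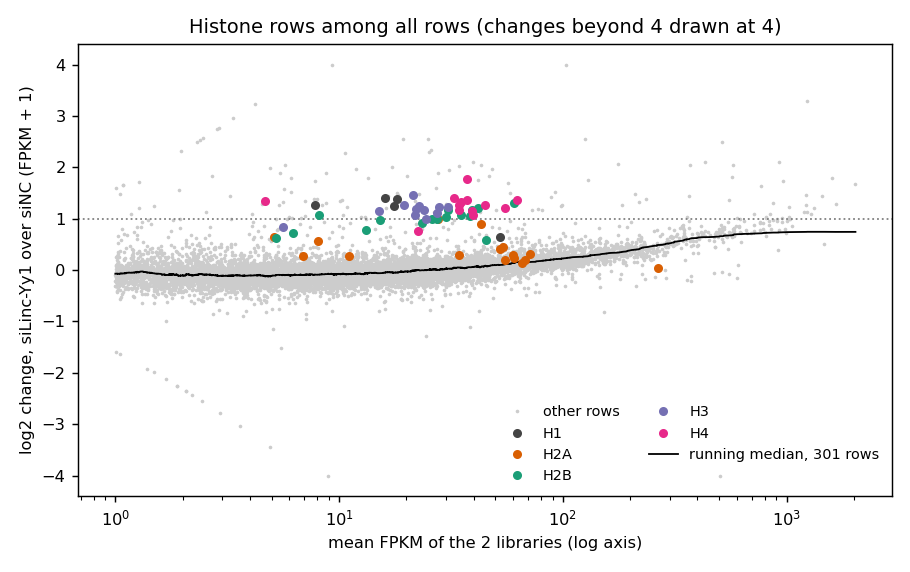
Log2 change of siLinc-Yy1 over siNC (FPKM + 1) against the mean FPKM of each row on a log axis, with histone rows coloured by family, other rows in grey, the running median as a line and 2-fold dotted. Most H1, H2B, H3 and H4 rows lie near or above 2-fold, while H2A rows of 50 FPKM and more lie lower, from 0.44 below the running median (Hist1h2ao and Hist1h2ap) to 0.34 above it (Hist1h2ak); after rescaling to equal summed FPKM, 9 H2A rows lie below 0.

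Rows of like level were compared next. Between 20 and 50 FPKM, where 32 histone rows lie, the median change was 1.16 for histone rows and 0.025 for 2703 other rows, of which 0.740% were at least 2-fold higher. From 50 to 100 FPKM, where 8 of 12 histone rows are H2A, the gap was smaller, with 0.36 for the histone rows and 0.15 for 1008 other rows. From 5 to 10 FPKM 8 histone rows had a median of 0.68 and 2124 other rows one of -0.092. Above 100 FPKM the only histone row, that of Hist1h2ao and Hist1h2ap, was at 0.049, below the median of 0.32 for 621 other rows up to 400 FPKM. Less the running median of rows of like level, the histone rows had a median of 1.03, and 2 Hist1 H2A rows lay below 0. The 35 other rows under 1 kb and between 10 and 100 FPKM had a median of 0.13, and 4 of them were at least 2-fold higher. Some of the 35 are small RNAs without a poly(A) tail. Without these, 31 rows had a median of 0.12, and 2 were at least 2-fold higher. Rescaling both libraries to equal summed FPKM lowers every row and gives a median of all rows of -0.30. At that scale the histone median was 0.76 and 9 rows were at least 2-fold higher, against 93 of all rows.

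The families differed in size of change. The summed FPKM of H4 was 684 in siLinc-Yy1 and 276 in siNC, a ratio of 2.48 (counting interval 2.39 to 2.57). H3 summed to 370 FPKM in siLinc-Yy1 and 156 FPKM in siNC, a ratio of 2.37 (2.26 to 2.47). For H2B the sums were 608 FPKM in siLinc-Yy1 and 290.1 FPKM in siNC, a ratio of 2.1 (2.02 to 2.17). H1 gave 151 FPKM in siLinc-Yy1 and 72.9 FPKM in siNC, a ratio of 2.08 (1.91 to 2.26). H2A, the most abundant family, summed to 971 FPKM in siLinc-Yy1 and 807 FPKM in siNC, a ratio of 1.2 (1.18 to 1.23) that became 0.963 after rescaling to equal summed FPKM. The intervals of the H2A sum and of each other family did not overlap. The share of H2A in all histone FPKM was 34.9% in siLinc-Yy1 and 50.4% in siNC, and the ratio of H2A to H2B sums was 1.60 in siLinc-Yy1 and 2.78 in siNC. That of H4 to H3 sums stood at 1.85 in siLinc-Yy1 and 1.76 in siNC.

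**Figure D2:**
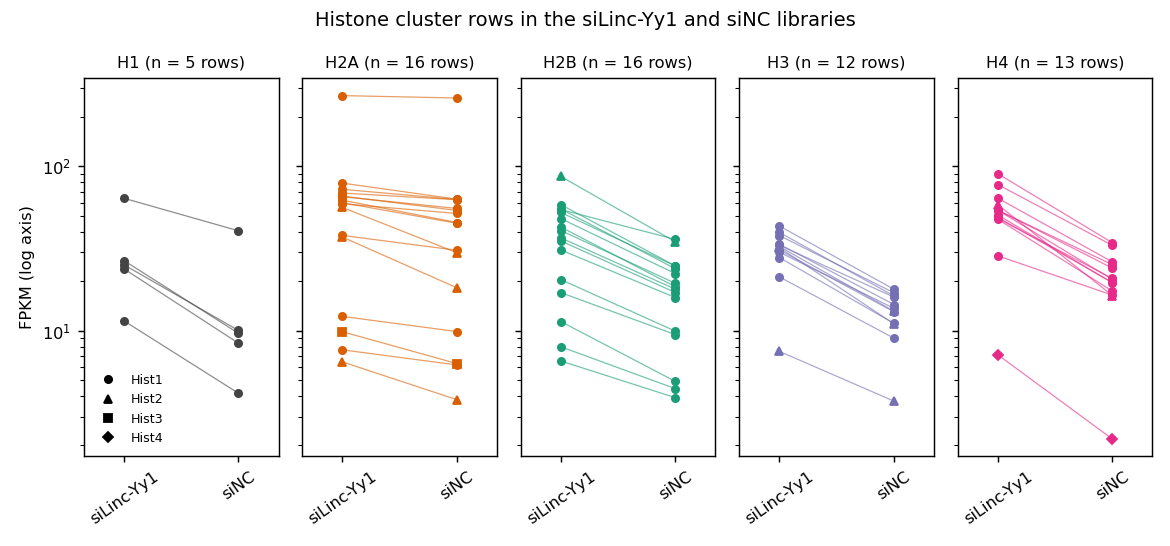
FPKM on a log axis of each histone row past the filter in siLinc-Yy1 (left) and siNC (right), joined by a line, 1 panel per family, with the cluster as symbol. Lines of H1, H2B, H3 and H4 are steep, while those of most H2A rows are nearly flat; the sum of H2A is 1.2 times that in siNC and 0.963 times it when the libraries are rescaled to equal summed FPKM.

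The linker histone rows, whose proteins compact the chromatin fibre, are all of the Hist1 cluster here. Of 6 rows 5 passed the filter and 4 were at least 2-fold higher. Hist1h1a (chromosome 13, 23855537 to 23856283) stood at 26.7 FPKM in siLinc-Yy1 and 9.63 FPKM in siNC, a ratio of 2.77 (2.47 to 3.13). Hist1h1b was at 25.2 FPKM in siLinc-Yy1 and 10.0 FPKM in siNC. Hist1h1e, whose locus in the table is joined with that of Hist1h2be, measured 23.8 FPKM in siLinc-Yy1 and 8.39 FPKM in siNC. For Hist1h1d the values were 11.5 FPKM in siLinc-Yy1 and 4.16 FPKM in siNC. These 4 were alike in ratio, between 2.51 and 2.83. The most abundant linker row, Hist1h1c (chromosome 13, 23830676 to 23832236), differed less, at 64.0 FPKM in siLinc-Yy1 and 40.6 FPKM in siNC, a ratio of 1.58. Without it the H1 sum had a ratio of 2.70. The testis gene Hist1h1t was below the filter, at 0.155 FPKM in siLinc-Yy1 and 0.111 FPKM in siNC.

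H2A rows split by cluster. In Hist1, 12 of 13 rows passed the filter and none was at least 2-fold higher, with changes of 0.049 to 0.44 and a median of 0.27 (-0.028 after rescaling to equal summed FPKM). The other 40 Hist1 rows past the filter ran from 0.59 to 1.40, so these sets did not overlap. The row shared by Hist1h2ao and Hist1h2ap, on chromosome 13 from 21924931 to 21925444, was the highest histone row, at 270 FPKM in siLinc-Yy1 and 261 FPKM in siNC. Its ratio of 1.03 had an interval of 0.998 to 1.07, which includes 1, and became lower than 1 after rescaling. A second row for Hist1h2ap at the same locus is listed at 0 in both libraries.

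Hist1h2ag measured 79.1 FPKM in siLinc-Yy1 and 63.2 FPKM in siNC, Hist1h2ah 72.6 FPKM in siLinc-Yy1 and 62.9 FPKM in siNC and Hist1h2ad 68.9 FPKM in siLinc-Yy1 and 62.7 FPKM in siNC. Hist1h2ak had the largest change of the 12, at 62.3 FPKM in siLinc-Yy1 and 45.6 FPKM in siNC, a ratio of 1.37. Without the row of Hist1h2ao and Hist1h2ap the Hist1 H2A sum had a ratio of 1.21, still below that of each other family. Hist1h2ac, with a locus over 1 kb, stood at 12.2 FPKM in siLinc-Yy1 and 9.87 FPKM in siNC, and the testis gene Hist1h2aa at 7.64 FPKM in siLinc-Yy1 and 6.18 FPKM in siNC. None of the 12 was called in the authors' deposited table.

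H2A rows of the other clusters stood higher. Hist2h2ac (chromosome 3, 96024378 to 96024767) measured 37.1 FPKM in siLinc-Yy1 and 18.2 FPKM in siNC, a ratio of 2.04 (1.78 to 2.34). The row of Hist2h2aa1 and Hist2h2aa2 was at 56.2 FPKM in siLinc-Yy1 and 29.8 FPKM in siNC, a ratio of 1.89 (1.73 to 2.05), and a second row for Hist2h2aa2 is listed at 0 in both libraries. Hist2h2ab measured 6.45 FPKM in siLinc-Yy1 and 3.80 FPKM in siNC, on 91 fragments in siLinc-Yy1 and 76 in siNC, and Hist3h2a 9.85 FPKM in siLinc-Yy1 and 6.30 FPKM in siNC. The intervals of Hist2h2ac and of the Hist2h2aa1 and Hist2h2aa2 row lie above those of every Hist1 H2A row that has one, whose highest upper bound was 1.61. The authors' deposited table called both, with q-values of 0.000594 for Hist2h2ac and 0.000416 for the joint row. The authors' deposited table did not call Hist2h2ab (q-value 0.236) or Hist3h2a (q-value 0.0787). The interval of Hist2h2ab, 1.24 to 2.33, overlapped those of several Hist1 H2A rows.

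**Figure D3:**
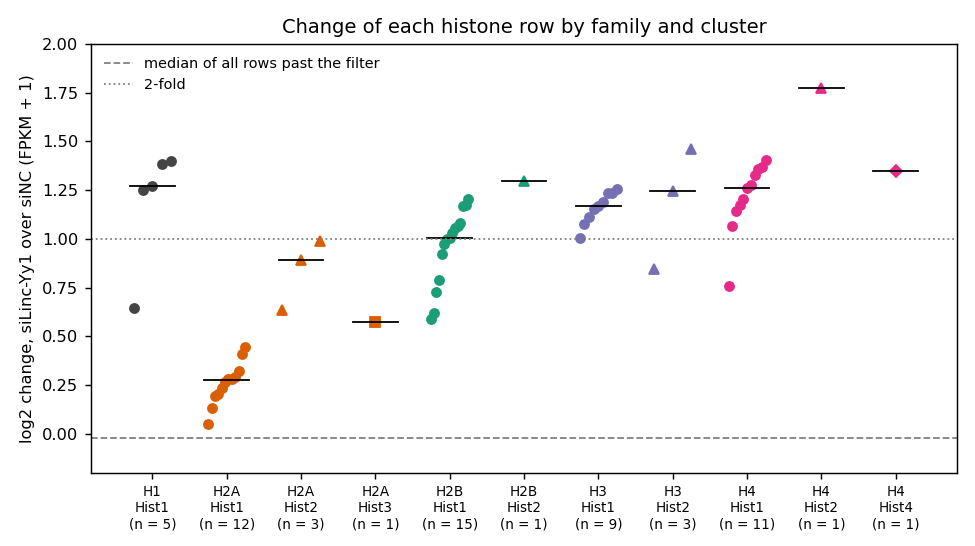
Log2 change of siLinc-Yy1 over siNC (FPKM + 1) of each histone row past the filter by family and cluster, with black bars at group medians, the median of all rows dashed and 2-fold dotted. Hist1 H2A rows lie between 0.049 and 0.44, below every other histone row, and their median turns to -0.028 after rescaling to equal summed FPKM.

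H2B rows were near 2-fold. Of 19 rows 16 passed the filter, 9 were at least 2-fold higher and all 16 lay between 0.59 and 1.30 in log2 change. Hist2h2bb (chromosome 3, 96073623 to 96074115) was the most abundant in siLinc-Yy1, at 86.9 FPKM, against 34.7 FPKM in siNC, a ratio of 2.50 (2.31 to 2.71). Hist1h2bg measured 58.5 FPKM in siLinc-Yy1 and 24.8 FPKM in siNC. The 7 H2B rows annotated at coding length alone ran close together, with a median of 40.7 FPKM in siLinc-Yy1 and 18.5 FPKM in siNC and changes of 0.92 to 1.17. Reads shared among near-identical copies limit how far these rows can be told apart.

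The H2B rows that differed least had long loci. Hist1h2bc, with a locus of 8282 bases, stood at 54.6 FPKM in siLinc-Yy1 and 35.9 FPKM in siNC, a ratio of 1.52. Hist1h2bq and Hist1h2br, both with loci of 3788 bases, were at 6.53 FPKM in siLinc-Yy1 and 3.91 FPKM in siNC for Hist1h2bq and at 7.98 FPKM in siLinc-Yy1 and 4.43 FPKM in siNC for Hist1h2br. Over the 5 H2B rows with a locus of 1 kb or longer the median change was 0.72, against 1.05 over the 11 shorter ones. This split by length was chosen with the values in view. Hist2h2be, with a locus of 2618 bases, was below the filter at 0.978 FPKM in siLinc-Yy1 and 0.870 FPKM in siNC. Hist1h1c, the linker row that differed least, also had a long locus, of 1561 bases, while Hist2h3c2, with 1020 bases, and Hist4h4, with 2879 bases, were among the highest in ratio. A part of locus length in these values was not tested. Of the low rows, Hist3h2ba stood at 0.848 FPKM in siLinc-Yy1 and 0.574 FPKM in siNC and the pseudogene Hist3h2bb-ps at 0.697 FPKM in siLinc-Yy1 and 0.966 FPKM in siNC, the 1 histone row that was lower in siLinc-Yy1, on 12 fragments in siLinc-Yy1 and 24 in siNC.

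Back-to-back genes gave a comparison within 1 stretch of DNA. In 8 places of Hist1 an H2B and an H2A gene that both passed the filter and matched a single RefSeq promoter start away from each other with 163 to 280 bases between their RefSeq starts, a comparison chosen with the values in view. In all 8 the H2B row had the larger change, by 0.52 to 0.91 on the log2 scale, and 4 of the 8 H2B rows but none of the H2A rows were at least 2-fold higher. Since near-identical copies within a family share reads, the 8 differences are not independent of each other. Hist1h2bj stood at 40.7 FPKM in siLinc-Yy1 and 19.4 FPKM in siNC, and Hist1h2ag at its back at 79.1 FPKM in siLinc-Yy1 and 63.2 FPKM in siNC. The sequence printed for Hist1h2bj is, read from the other strand and 2 bases aside, also the 250 bases before Hist1h2ag. Hist1h2bk, with the octamer in its printed sequence, was at 48.1 FPKM in siLinc-Yy1 and 22.3 FPKM in siNC, and its partner Hist1h2ah at 72.6 FPKM in siLinc-Yy1 and 62.9 FPKM in siNC. In the testis pair, Hist1h2ba measured 17.0 FPKM in siLinc-Yy1 and 9.46 FPKM in siNC and Hist1h2aa 7.64 FPKM in siLinc-Yy1 and 6.18 FPKM in siNC, the smallest difference in change of the 8. By locus in the table, 4 more H2B and H2A rows lie within 500 bases of each other, and they did not all follow. The H2B row had the larger change by 0.31 for Hist1h2bc and Hist1h2ac and by 0.68 for Hist1h2br and the row of Hist1h2ao and Hist1h2ap. In Hist2 and Hist3 the H2A row had the larger change, with 0.99 for Hist2h2ac against 0.081 for Hist2h2be and 0.57 for Hist3h2a against -0.21 for Hist3h2bb-ps, both H2B rows being below the filter. The difference within each place does not depend on the scaling between libraries beyond the pseudocount, while the sign of the H2A change does.

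**Figure D4:**
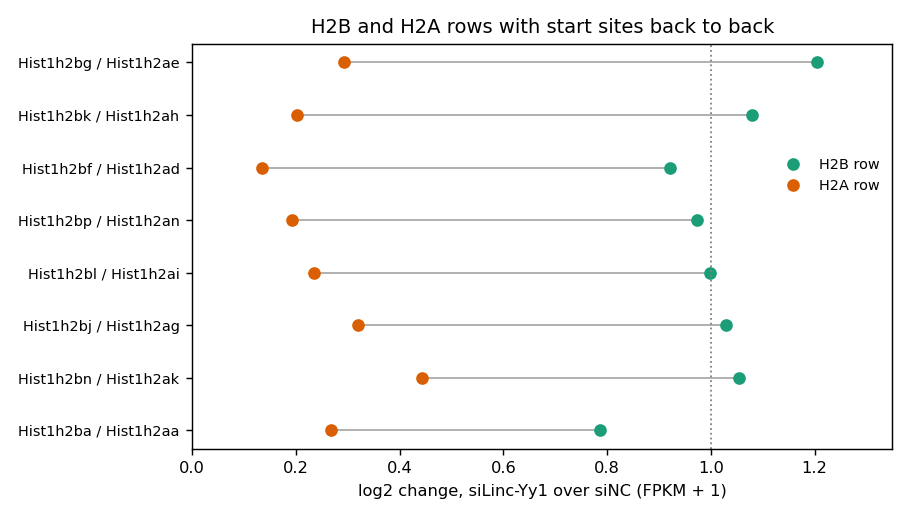
Log2 change of siLinc-Yy1 over siNC (FPKM + 1) of the H2B row (green) and the H2A row (orange) at 8 places of Hist1 where their starts are back to back, with 2-fold dotted. Every H2B row lies right of its H2A row by 0.52 to 0.91, but copies within a family share reads, so the 8 places are not independent. After rescaling to equal summed FPKM most Hist1 H2A rows fall below 0.

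H3 rows were even in change, as far as copies that share reads can be told apart. All 12 passed the filter, 11 were at least 2-fold higher and the authors' deposited table called all 12 higher. The 9 Hist1 rows ran from 21.2 to 43.4 FPKM in siLinc-Yy1 and from 9.00 to 17.9 FPKM in siNC, with changes of 1.00 to 1.26. Hist1h3i was the highest, at 43.4 FPKM in siLinc-Yy1 and 17.9 FPKM in siNC, followed by Hist1h3h at 39.7 FPKM in siLinc-Yy1 and 16.3 FPKM in siNC and Hist1h3b at 37.9 FPKM in siLinc-Yy1 and 17.0 FPKM in siNC. The largest ratio was that of Hist2h3c2 (chromosome 3, 96042031 to 96043050), at 32.0 FPKM in siLinc-Yy1 and 11.0 FPKM in siNC, or 2.91. Its neighbour Hist2h3c1 had the smallest, at 7.48 FPKM in siLinc-Yy1 and 3.72 FPKM in siNC, or 2.01. These ratios have no pseudocount. With 1 FPKM added the log2 change of Hist2h3c1 was 0.84, so it is the row that missed the 2-fold rule. The third Hist2 row, Hist2h3b, stood at 32.5 FPKM in siLinc-Yy1 and 13.2 FPKM in siNC. In Hist1 the largest change was that of Hist1h3f, at 27.9 FPKM in siLinc-Yy1 and 11.1 FPKM in siNC, and the smallest that of Hist1h3c, at 33.1 FPKM in siLinc-Yy1 and 16.0 FPKM in siNC.

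H4 rows had the highest family ratio. Of 13 rows 12 were at least 2-fold higher, and the authors' deposited table called all 13 higher. Hist1h4d (chromosome 13, 23673471 to 23673782) was the most abundant, at 90.3 FPKM in siLinc-Yy1 and 34.3 FPKM in siNC, followed by Hist1h4a at 77.5 FPKM in siLinc-Yy1 and 33.1 FPKM in siNC and Hist1h4f at 64.1 FPKM in siLinc-Yy1 and 26.2 FPKM in siNC. The largest ratio of all histone rows past the filter was that of Hist2h4 (chromosome 3, 96066893 to 96067240), at 58.5 FPKM in siLinc-Yy1 and 16.4 FPKM in siNC, or 3.57 (3.10 to 4.12). Its interval did not overlap that of Hist1h4d, 2.36 to 2.94, or of any Hist1 H4 row other than Hist1h4m and Hist1h4n, whose joint row, at 47.7 FPKM in siLinc-Yy1 and 17.4 FPKM in siNC, had an upper bound of 3.12. A second row for Hist1h4n at the same locus stood at 54.3 FPKM in siLinc-Yy1 and 24.0 FPKM in siNC. Hist4h4, the lone gene on chromosome 6, measured 7.12 FPKM in siLinc-Yy1 and 2.19 FPKM in siNC, a ratio of 3.26. Hist1h4b was at 53.9 FPKM in siLinc-Yy1 and 25.2 FPKM in siNC. The exception below 2-fold was Hist1h4i, at 28.5 FPKM in siLinc-Yy1 and 16.5 FPKM in siNC, a ratio of 1.73 (1.53 to 1.96).

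Values were alike along Hist1, with the limit that near-identical copies along it share reads. The cluster falls into 2 groups of rows with more than 200 kb between them. Apart from H2A, the 16 rows of the first had a median change of 1.11 and the 24 of the second one of 1.17. The H2A rows of these groups stood at medians of 0.22 and 0.28, which turned to -0.099 and -0.018 after rescaling to equal summed FPKM. Over all families, Hist1 rows summed to 2447 FPKM in siLinc-Yy1 and 1460 FPKM in siNC, a ratio of 1.68, and Hist2 rows to 318 FPKM in siLinc-Yy1 and 132 FPKM in siNC, a ratio of 2.42. Within H2B, H3 and H4 the Hist2 ratios of 2.47, 2.58 and 3.57 stood beside Hist1 ratios of 2.05, 2.32 and 2.40, each Hist2 value resting on 1 to 3 rows.

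Genes that act on histones did not show the same size of change. Of 19 rows past the filter for transcription of histone genes and the 3′ end of their mRNAs, none was at least 2-fold different, and the median was -0.040. Slbp, the stem-loop binding protein, stood at 34.7 FPKM in siLinc-Yy1 and 35.2 FPKM in siNC. Npat, the coactivator of histone genes at S phase entry, measured 4.42 FPKM in siLinc-Yy1 and 4.92 FPKM in siNC, Casp8ap2, a histone locus body protein also known as FLASH, 4.21 FPKM in siLinc-Yy1 and 5.63 FPKM in siNC, and Lsm11, of the U7 particle that directs cleavage, 3.33 FPKM in siLinc-Yy1 and 3.71 FPKM in siNC. Cpsf3, the nuclease that makes the cut, was at 44.1 FPKM in siLinc-Yy1 and 41.9 FPKM in siNC, Srrt at 89.4 FPKM in siLinc-Yy1 and 80.1 FPKM in siNC, Fip1l1 at 55.7 FPKM in siLinc-Yy1 and 47.2 FPKM in siNC and Lsm1, of a decay complex, at 6.11 FPKM in siLinc-Yy1 and 7.79 FPKM in siNC. All 19 of these rows lay below 0 after rescaling to equal summed FPKM. The 16 chaperone genes had a median of -0.045 and none past 2-fold, with Nap1l1 at 224 FPKM in siLinc-Yy1 and 179 FPKM in siNC, Ssrp1 at 132 FPKM in siLinc-Yy1 and 119.9 FPKM in siNC, Rbbp7 at 93.3 FPKM in siLinc-Yy1 and 89.9 FPKM in siNC and Daxx at 22.9 FPKM in siLinc-Yy1 and 27.5 FPKM in siNC. The 32 genes of the S phase list showed a median of -0.0089 and none past 2-fold, with Pcna, the sliding clamp of DNA polymerases, at 165 FPKM in siLinc-Yy1 and 149 FPKM in siNC. Rrm2 measured 119 FPKM in siLinc-Yy1 and 106 FPKM in siNC, Tk1 99.9 FPKM in siLinc-Yy1 and 89.0 FPKM in siNC, Gins3 7.73 FPKM in siLinc-Yy1 and 11.1 FPKM in siNC and E2f2 8.05 FPKM in siLinc-Yy1 and 10.8 FPKM in siNC.

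Replacement histones, most of which are made outside S phase too and from polyadenylated mRNAs, differed less. None of 11 rows was at least 2-fold different, and the median of 0.23 turned to -0.085 after rescaling to equal summed FPKM. H2afz measured 243 FPKM in siLinc-Yy1 and 191 FPKM in siNC, H3f3b 204 FPKM in siLinc-Yy1 and 155 FPKM in siNC, and H3f3a 163 FPKM in siLinc-Yy1 and 144 FPKM in siNC. The largest change was that of H1f0, the linker histone of resting cells, at 154 FPKM in siLinc-Yy1 and 105 FPKM in siNC.

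Other RNAs that have no poly(A) tail were also higher in siLinc-Yy1. Of 119 rows of small nucleolar, Cajal body and related RNAs 99 passed the filter. Their median change was 1.26, with 62 at least 2-fold higher and 8 at least 2-fold lower. After rescaling to equal summed FPKM 47 were at least 2-fold higher and the median was 0.95. The authors' deposited table called 10 of the 119 rows higher, against 47 of the 68 histone rows. Both totals include rows without status OK, so these shares are not like for like. Of all rows with that status, 1.29% were called higher. Their summed FPKM was 13970 in siLinc-Yy1 and 4460 in siNC. Rmrp, the RNA of a ribosomal RNA processing enzyme, stood at 702 FPKM in siLinc-Yy1 and 163 FPKM in siNC. Terc, the telomerase RNA, was low, at 1.97 FPKM in siLinc-Yy1 and 0.397 FPKM in siNC. It passed the filter only through its siLinc-Yy1 value, so its change is uncertain. The most abundant was Snord49b, at 2490 FPKM in siLinc-Yy1 and 719 FPKM in siNC, then Snord49a at 1478 FPKM in siLinc-Yy1 and 446 FPKM in siNC and Snord100 at 1170 FPKM in siLinc-Yy1 and 375 FPKM in siNC. Scarna9 stood at 206 FPKM and Snord68 at 18.6 FPKM in siLinc-Yy1, and both are listed at 0 in siNC. Zeros occurred in the other library too. The 8 rows at least 2-fold lower are all listed at 0 in siLinc-Yy1, among them Snord45b, at 17.9 FPKM in siNC. Changes that rest on a 0 are unreliable in both directions. Many small nucleolar RNAs lie inside introns of host genes, so these values are less certain. Some loci, such as that of Snord104 (chromosome 11, 106362305 to 106362377), are shorter than the bases taken off receptor rows. The length correction of such short RNAs is not known, so their changes are not directly comparable with those of histone rows. How much such RNA passed the poly(A) selection in each library was not measured, and its part in the histone result was not tested. Beside the median of 1.26 of these RNAs, histone rows without H2A had one of 1.17 and Hist1 H2A rows one of 0.27.

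**Figure D5:**
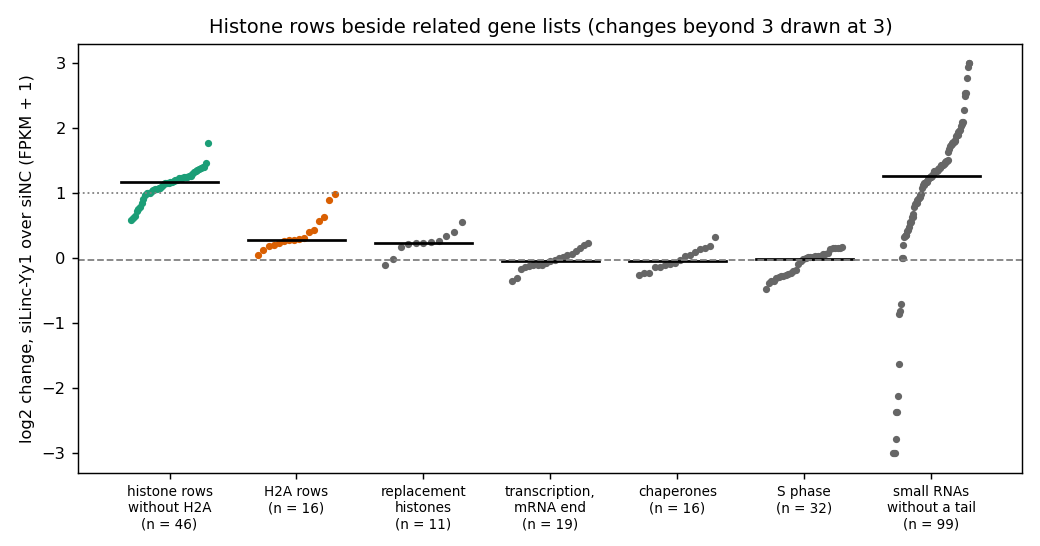
Log2 change of siLinc-Yy1 over siNC (FPKM + 1) of each row past the filter in histone rows and related gene lists, with black bars at medians, the median of all rows dashed and 2-fold dotted. The medians of histone rows without H2A (1.17) and of RNAs without a tail (1.26) lie above those of the other gene lists. Single RNAs without a tail spread widely, with 11 of 99 below 0. Their changes are not directly comparable with those of histone rows, since their length correction is not known. After rescaling to equal summed FPKM the medians of H2A and of replacement histones turn below 0.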

How the data were processed

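RNA-seq of C2C12 myoblasts was analysed from 1 siLinc-Yy1 and 1 siNC library of 13 samples; the other 2 RNA-seq and all 9 ChIP-seq samples were not analysed here. Per the file headers, the deposited table is a gene-level Cuffdiff comparison with FPKM per condition, the authors' p-value and q-value and a deposited log2 fold change, used only to check the direction. Build mm9, Cuffdiff 2.0.4, Cufflinks 2.1.1 and TopHat2 2.0.4 are listed, per the submitters' processing notes. For annotation, strand use, scaling between libraries and reads with several matches, the status is: not given in the sources used here.

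After adding a pseudocount of 1 FPKM to each value, siLinc-Yy1 was divided by siNC and the log2 taken, among rows with a mean of at least 1 FPKM, and the size rule was 2-fold. Family sums took all rows with no pseudocount. Ratios of single rows had none either, so a row with a ratio just above 2 can miss the 2-fold rule. Fragments were read from FPKM steps. Of receptor rows at 1 to 10 fragments, 70.9% of 368 (siLinc-Yy1) and 73.8% of 500 (siNC) were whole within 0.02 fragments, so no count test was run. The binomial intervals treat such estimates as counts and are a guide only. FPKM summed to 457250 in siLinc-Yy1 and 365650 in siNC. Python 3.11.15, pandas 2.3.3, NumPy 2.4.6 and SciPy 1.17.1 were used, and the size rule, running median (301 rows) and step fit were tested on simulated data. Of 68 histone rows, 64 matched 1 RefSeq gene by older symbol. In each family the 3 rows with the highest mean and the 2 with the highest and the 2 with the lowest changes were named, with others chosen after their values were seen. From each comparison list of related genes the 3 most abundant and 2 most changed rows are given, and Slbp, Npat, Lsm11, Rmrp and Terc were chosen after their values were seen. The members, lists and tests were chosen with earlier results of these data known. Alternatives were other pseudocounts, filters, scalings and fold rules, and removal of rows by status or shared locus.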

Additional observations from a re-analysis of the deposited data

How the results depend on the processing

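The median change of histone rows stayed between 0.76 and 1.10 over the alternatives run, and no histone row past the filter was 2-fold lower under any of them. Rescaling to equal summed FPKM lowered the median to 0.76 and the count of rows at least 2-fold higher to 9, and a pseudocount of 5 FPKM lowered the count to 22; under the others that kept the 2-fold rule it was 32 to 39. Less the running median, 2 Hist1 H2A rows lay below 0. At equal summed FPKM the family ratios were 1.66 for H1, 1.68 for H2B, 1.89 for H3 and 1.98 for H4, and that of H2A turned to 0.963, since this scaling divides every ratio by 1.25. Leaving out the highest row gave 2.70 for H1 (Hist1h1c) and 1.28 for H2A (Hist1h2ao and Hist1h2ap), and leaving out rows with a shared locus gave 1.25 for H2A. No paired analysis was possible because each condition has 1 library. With no replicate, the spread between cultures is unknown.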
